A study of Mus musculus with 6 samples.

Results

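Serpins (serine protease inhibitors) are a superfamily of proteins that share one fold, and the genes described here are all those whose symbol begins with Serpin in the annotation of the array. The annotation held 57 such symbols, of which 54 had probe sets of their own, out of 20416 genes measured in all. The other 3, Serpina1b, Serpinb9f and Serpinb9g, were named only on probe sets shared with paralogs. RNA came from primary hepatocytes of adult C57BL/6 mice, 3 carrying a doxycycline-inducible miR-143 allele (miR-143DOX) and 3 wildtype littermates (control), with 1 Affymetrix array per mouse. Mice of both groups were kept for 8 days on drinking water that held doxycycline (4 mg/ml) and sucrose (10%), and doxycycline exposure is therefore common to both. The sources used here do not give the promoter of the transgene, and miR-143 was not analysed here. MicroRNAs are short RNAs that repress the transcripts they pair with, and the study set hepatocytes in which this one is induced beside hepatocytes without it.

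Most serpins present a flexible loop as bait to a protease; once cut, the loop inserts into the body of the serpin and traps the protease in an inactive complex. Hepatocytes secrete many of them into plasma, where they restrain clotting, fibrinolysis, complement and neutrophil elastase, while a few members have lost inhibition and carry hormones or assist protein folding. The family is divided into clades by letter. Clade A holds the antitrypsin-like secreted proteins, clade B mostly intracellular inhibitors, and clades C to I small groups such as antithrombin and C1 inhibitor. The 54 measured genes comprised 21 of clade A, 23 of clade B, 2 each of clades E, F and I, and 1 each of clades C, D, G and H. By the RefSeq table for the GRCm38.p6 assembly, 20 of the 21 clade A genes lie on chromosome 12, and the clade B genes lie on chromosome 13 (12 genes) and chromosome 1 (11 genes).

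Many of these genes are recent copies of each other, which sets how well an array can tell them apart. The stretches upstream of the annotated starts of the mouse alpha-1-antitrypsin genes are shown to make that likeness visible. They are from RefSeq (GRCm38.p6, minus strand of chromosome 12), 66 bases each, with capitals marking GTTAAT, part of the palindromic site bound by the liver factor HNF1, which is known to drive this promoter.
Serpina1a, chr12:103863625-103863690: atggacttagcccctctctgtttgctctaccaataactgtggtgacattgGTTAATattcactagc
Serpina1b, chr12:103738200-103738265: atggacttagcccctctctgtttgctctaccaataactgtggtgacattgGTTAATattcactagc
Serpina1c, chr12:103904962-103905027: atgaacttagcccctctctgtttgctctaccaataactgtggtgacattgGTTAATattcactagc
Serpina1d, chr12:103773634-103773699: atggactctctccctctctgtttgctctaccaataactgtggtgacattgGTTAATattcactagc
Serpina1e, chr12:103956960-103957025: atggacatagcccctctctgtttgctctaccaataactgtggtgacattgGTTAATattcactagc
Over these 66 bases Serpina1a and Serpina1b each differed from Serpina1c at 1 base, Serpina1e at 2 and Serpina1d at 5. GTTAAT, searched on both strands, stood in 9 of the 45 Serpin genes that had probe sets of their own and a promoter in the table (20%). The background was 8.24% of all 27025 genes and 7.1% of all 32851 promoters there. Serpina1b, without probe sets of its own, was not counted. The 9 include the near copies Serpina1a, Serpina1c, Serpina1d and Serpina1e, so they are not 9 independent promoters. The windows ran from 250 bases before to 50 bases after each start. A match describes the letters and says nothing of binding.

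A second set shows Serpina3n and Serpina3c, the tested clade A genes whose arrays did not overlap between the groups (values follow). These are the 150 bases before the span of each gene in the RefSeq gene table (GRCm38.p6). The starts in the RefSeq promoter table lie 62 bases inside that span for Serpina3n and 57 for Serpina3c. Capitals mark a 37-base run that both share, and no run shared by the windows is longer.
Serpina3n, chr12:104406496-104406645, plus strand: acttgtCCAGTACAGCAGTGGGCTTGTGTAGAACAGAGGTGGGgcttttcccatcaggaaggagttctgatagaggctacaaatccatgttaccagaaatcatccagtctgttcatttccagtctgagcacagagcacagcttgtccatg
Serpina3c, chr12:104153930-104154079, minus strand: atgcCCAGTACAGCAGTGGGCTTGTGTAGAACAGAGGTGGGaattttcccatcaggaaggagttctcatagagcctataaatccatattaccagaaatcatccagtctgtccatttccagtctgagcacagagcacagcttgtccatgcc
This run was found in no promoter of the table other than these 2 of 32851, searched on both strands. It was picked as the longest exact match of these 2 windows, so a close copy with any base changed would not be counted. No other pair of Serpina3 genes was compared in this way. The STAT motif TTCNNNGAA, whose factor STAT3 is known to induce acute phase genes, was in the promoter table's window of neither gene and in 7 of 45 Serpin genes (15.6%, against 9.55% of all genes). The C/EBP motif TTGCNNAA was in 13 of 45 (28.9%, against 12.2%), among them Serpina1a, Serpina1d and Serpina1e. Absence of these letters from a window says nothing of the factor.

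Values are log2 intensities after quantile normalization, and a gene's value is the mean of its probe sets. Intensities of different genes depend on their probes, so they are not set against each other as abundance. The 6 arrays correlated at 0.936 to 0.954 across probe sets, and the 14 measured hepatocyte markers averaged 12.74 to 12.81 in miR-143DOX arrays and 12.70 to 12.85 in control arrays. Genes whose mean lay under log2 5.06, the lowest 25% of all genes, were not tested, which left 31 Serpin genes among 15312. Serpina5, at 5.10, lay just inside this limit and Serpinb9b, at 5.03, just outside. In RNA from a preparation of cells, fewer cells of a type and less RNA per cell cannot be told apart.

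In limma's moderated test, adjusted over all 15312 genes, 0 of 31 Serpin genes passed a false discovery rate (FDR) of 5%. The background was 0% of all tested genes, with a smallest adjusted p of 0.735, and each of the 31 Serpin genes had an adjusted p of 0.9997. At an unadjusted p under 0.05, 3 of 31 Serpin genes (9.68%) lay lower in miR-143DOX hepatocytes, namely Serpina3c, Serpina1a and Serpina3n, against 1.68% of all tested genes. None lay higher, against 1.38% of all tested genes. The median difference of the 31 genes was -0.11 (log2, miR-143DOX minus control) and 22 of them lay below 0 (71.0%), against a median of 0.01 and 47.6% below 0 over all tested genes. The miR-143DOX arrays lay wholly below the control arrays for 5 Serpin genes (16.1%, background 3.73%) and wholly above for 0 (background 3.4%). These 5 were Serpina3n, Serpina3c, Serpinf1, Serpinf2 and Serping1. B cell markers averaged 4.95 to 5.11 in miR-143DOX arrays and 4.83 to 4.89 in control arrays over 7 genes, of which 4 were bright enough to test and all 4 lay above 0. The 3 too dim to test were Cd79a, Fcrla and Ms4a1. Cd79a stood at 4.36 in miR-143DOX and 3.93 in control mice, Fcrla at 5.06 and 4.81, and Ms4a1 at 4.04 and 4.09. The part of these markers in any Serpin difference was not tested. By array, the median deviation of the 31 genes from their own means was -0.16, -0.08 and 0.04 in miR-143DOX mice and 0.02, 0.06 and 0.06 in control mice.

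**Figure D1:**
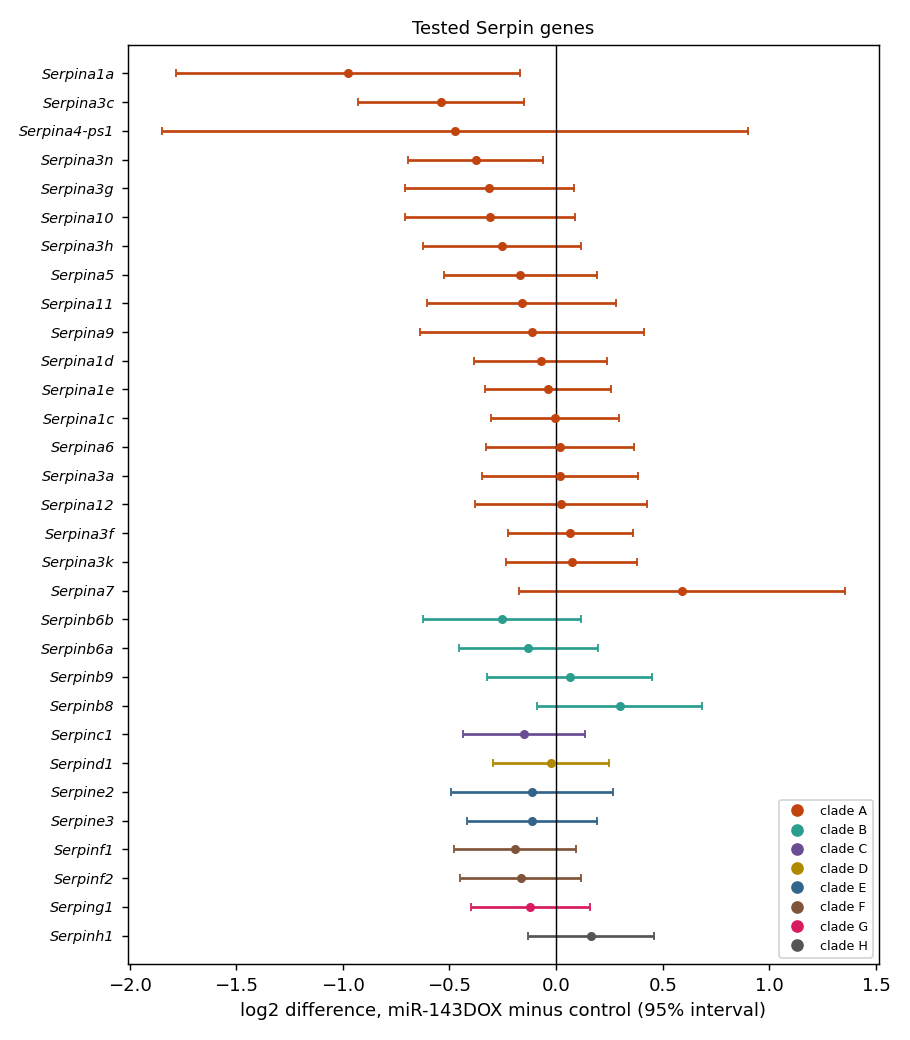
Log2 differences (x axis, miR-143DOX minus control, 3 arrays each) of the 31 tested Serpin genes, with bars for the 95% interval of the fit and colours for the clade. The intervals of Serpina1a, Serpina3c and Serpina3n lie below 0 and those of the other 28 genes include 0; none passed 5% FDR.

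Alpha-1-antitrypsin is the main plasma inhibitor of neutrophil elastase, and the mouse makes it from several gene copies. For Serpina1c the log2 values were 14.23, 14.18 and 14.05 in miR-143DOX mice and 14.01, 14.15 and 14.32 in control mice. Serpina1d measured 12.10, 12.18 and 11.91 in miR-143DOX mice and 12.01, 12.08 and 12.31 in control mice, and Serpina1e 12.63, 12.85 and 12.89 against 12.91, 12.74 and 12.82 in control mice. All 3 overlapped between the groups, with differences of -0.00 (95% interval -0.30 to 0.30), -0.07 (-0.38 to 0.24) and -0.04 (-0.33 to 0.26).

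Serpina1a stood apart from these copies. It measured 9.36, 10.35 and 10.72 in miR-143DOX mice and 10.61, 10.76 and 11.99 in control mice. The miR-143DOX values reached into the control range, and each group had 1 array far from the other 2: replicate 1 was low among miR-143DOX mice and replicate 3 was high among control mice. The difference was -0.98 with a standard error of 0.37 (0.51-fold, 95% interval -1.78 to -0.17). Leaving out control replicate 3 gave -0.54 and leaving out miR-143DOX replicate 1 gave -0.59, neither of them under an unadjusted p of 0.05. With all arrays kept, a robust prior that follows intensity also left the gene above that p.

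A single probe set carried the Serpina1a value, so the probe sets shared by the copies bear on it. There were 11 that named Serpina1 genes jointly. Of these, 10 averaged above log2 12 and differed between the groups by -0.26 to 0.19, and the groups overlapped on all 11. The other one, annotated to Serpina1a and Serpina1b, measured 7.23, 7.97 and 9.43 in miR-143DOX mice and 9.77, 9.26 and 8.66 in control mice, a difference of -1.02. This probe set and the one for Serpina1a alone thus gave similar differences, while the other 10, which name Serpina1a too, lay closer to 0. Among these 10 were bright probe sets annotated to the same pair, Serpina1a and Serpina1b, which differed by -0.004 and -0.011. The pair's probe sets therefore did not give one answer. On the shared probe set that differed by -1.02, the lowest control mouse was replicate 3. That mouse had been the highest on the probe set of Serpina1a alone. Shared probe sets of all 5 copies reached 15.12, close to the highest value of any probe set on these arrays (15.13).

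Serpina3n is a secreted inhibitor that is known as an acute phase and glucocorticoid-responsive gene of mouse liver and brain. It measured 11.59, 11.60 and 11.91 in miR-143DOX mice and 12.03, 11.98 and 12.23 in control mice. Every miR-143DOX mouse was below every control mouse, with means of 11.70 ± 0.18 in miR-143DOX and 12.08 ± 0.14 in control (SD, n = 3 each). The difference was -0.38 with a standard error of 0.14 (0.77-fold, 95% interval -0.69 to -0.06). All 4 of its probe sets lay below 0, at -0.51 to -0.23, and 3 of them did not overlap between the groups. With the brightest probe set alone the difference was -0.23, and it was -0.30, -0.32 and -0.33 without control replicate 3, miR-143DOX replicate 1 and miR-143DOX replicate 2, each no longer under an unadjusted p of 0.05.

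Serpina3c, which shares with Serpina3n the upstream run shown above, measured 6.67, 6.41 and 6.96 in miR-143DOX mice and 7.21, 7.49 and 6.97 in control mice. The groups did not overlap, but the highest miR-143DOX mouse and the lowest control mouse were nearly level. The difference was -0.54 with a standard error of 0.18 (0.69-fold, 95% interval -0.93 to -0.15), and all 4 probe sets lay below 0, at -0.61 to -0.40. Only 2 of them did not overlap between the groups, and the mean levels of the 4 ran from 4.01 to 11.01. Leaving out control replicate 2 gave -0.41 and leaving out miR-143DOX replicate 2 gave -0.40, no longer under an unadjusted p of 0.05, nor was the -0.60 from the median over probe sets. Probe sequences were not used here, so how far probe sets of one Serpina3 gene read transcripts of another was not tested.

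The other Serpina3 genes did not share this as a group. Serpina3k, contrapsin, had 1 probe set and measured 14.50, 14.54 and 14.54 in miR-143DOX mice and 14.25, 14.45 and 14.65 in control mice, with overlap and a difference of 0.07 (95% interval -0.23 to 0.38). Serpina3g differed by -0.31 (standard error 0.18) and Serpina3h, a transcribed pseudogene by the RefSeq table, by -0.26 (0.17), and their 95% intervals of -0.71 to 0.08 and -0.63 to 0.12 included 0. Serpina3g stood at -0.14 with miR-143DOX replicate 2 left out and at -0.48, under an unadjusted p of 0.05, with miR-143DOX replicate 3 left out. Serpina3h stood at -0.10 with the median over probe sets, -0.13 with control replicate 2 left out and, under that p, at -0.40 with array weights and -0.44 with control replicate 1 left out. The 6 probe sets of Serpina3g split evenly, 3 below and 3 above 0, from -1.51 to 0.54, and with its brightest probe set it stood at 0.04. Serpina3f and Serpina3a differed by 0.07 and 0.02, and Serpina3b, at 4.77 in miR-143DOX and 4.83 in control mice, was too dim to be tested.

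None of the 18 measured immediate early and stress genes, which respond to cell isolation, passed 5% FDR. They averaged 8.21 to 8.37 in miR-143DOX arrays and 7.98 to 8.18 in control arrays, with 15 of 18 above 0 and a median of 0.20. At an unadjusted p under 0.05, 4 were higher (background 1.38%) and 1 was lower (background 1.68%). The lower one was the heat shock gene Hspa1a, at 6.00, 5.96 and 6.14 in miR-143DOX mice and 6.71, 6.56 and 7.59 in control mice (-0.92), and the largest difference above 0 was that of Gadd45g, at 0.92. The part of these genes in the Serpina3n and Serpina3c differences was not tested.

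**Figure D2:**
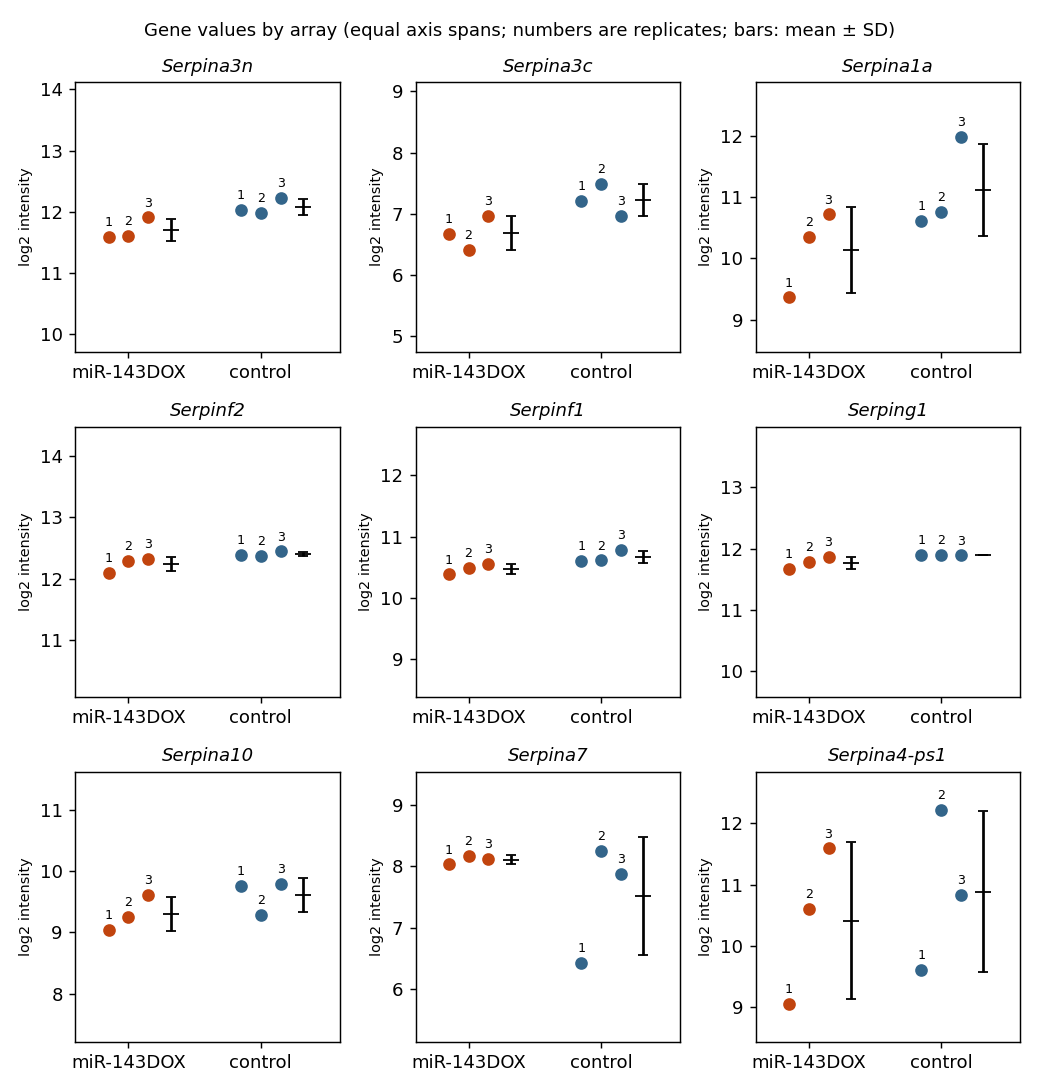
Log2 intensity (y axis, the same span in each panel) of 9 Serpin genes in the 3 miR-143DOX and 3 control arrays, numbered by replicate, with the mean ± SD as bars. The groups are apart for Serpina3n, Serpina3c, Serpinf2, Serpinf1 and Serping1, while Serpina7 has 1 low control array at 6.42 and Serpina4-ps1 ranges from 9.05 to 12.22.

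Of the clade A members that carry hormones, Serpina6, the corticosteroid-binding globulin, measured 11.47, 11.77 and 11.66 in miR-143DOX mice and 11.77, 11.76 and 11.33 in control mice. Its groups overlapped and the difference was 0.02 (95% interval -0.33 to 0.36). Serpina7, the thyroxine-binding globulin, measured 8.03, 8.18 and 8.12 in miR-143DOX mice and 6.42, 8.25 and 7.88 in control mice. The 3 miR-143DOX mice were close together and control replicate 1 was low, on all 7 probe sets of the gene. The difference of 0.59 (standard error 0.35, 95% interval -0.17 to 1.35) was 0.04 without that array. It was 0.96 without control replicate 2, then under an unadjusted p of 0.05. Control replicate 1 also had the largest Dbp minus Arntl, a contrast of circadian clock genes, at 4.52, against -1.25 to 3.00 in miR-143DOX mice and 0.26 and 0.85 in the other control mice. In miR-143DOX replicate 3, where the contrast was 3.00, Serpina7 measured 8.12. With this contrast as a covariate the Serpina7 difference was 0.38. The part of the clock in the Serpina7 values was not tested.

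Serpina4-ps1, a transcribed pseudogene by the RefSeq table that is related by its symbol to the gene for kallistatin, varied most between mice of one group, and it is named here after its values were seen. It measured 9.05, 10.60 and 11.59 in miR-143DOX mice and 9.61, 12.22 and 10.83 in control mice, a 9.03-fold range over the 6 mice. Its within-group SD of 1.29 was the 4th largest of 15312 tested genes, whose median was 0.18. The 7 probe sets followed one pattern, with the highest value in control replicate 2 on all 7 and the lowest in replicate 1 of either group on all 7. The groups overlapped, and the difference of -0.47 (standard error 0.63) turned to 0.21 when miR-143DOX replicate 1 was left out and to 0.19 when control replicate 2 was. Leaving out miR-143DOX replicate 3 gave -1.06 and leaving out control replicate 1 gave -1.11. Array weights gave -1.32, the one alternative under an unadjusted p of 0.05.

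Other Serpin genes spread less. Serpina1a and Serpina7 had within-group SDs of 0.73 and 0.69, 57th and 69th from the top. At the other end, Serpind1 and Serping1 had within-group SDs of 0.03 and 0.07 and were among the 0.2% and 3.5% of tested genes with the least spread. Gene values on chromosome 12 thus included both variable and steady ones: Serpina1e, at 0.11, and Serpina1c, at 0.13, lay below the median of all genes. These values average 1 probe set for Serpina1a and Serpina1e, 2 for Serpina1c, 7 for Serpina7 and Serpind1 and 8 for Serping1. The part of that number in the SDs was not tested. Bright probe sets shared by Serpina1a and Serpina1b alone ran from 14.1 to 14.4 and from 13.9 to 14.1 over the mice.

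**Figure D3:**
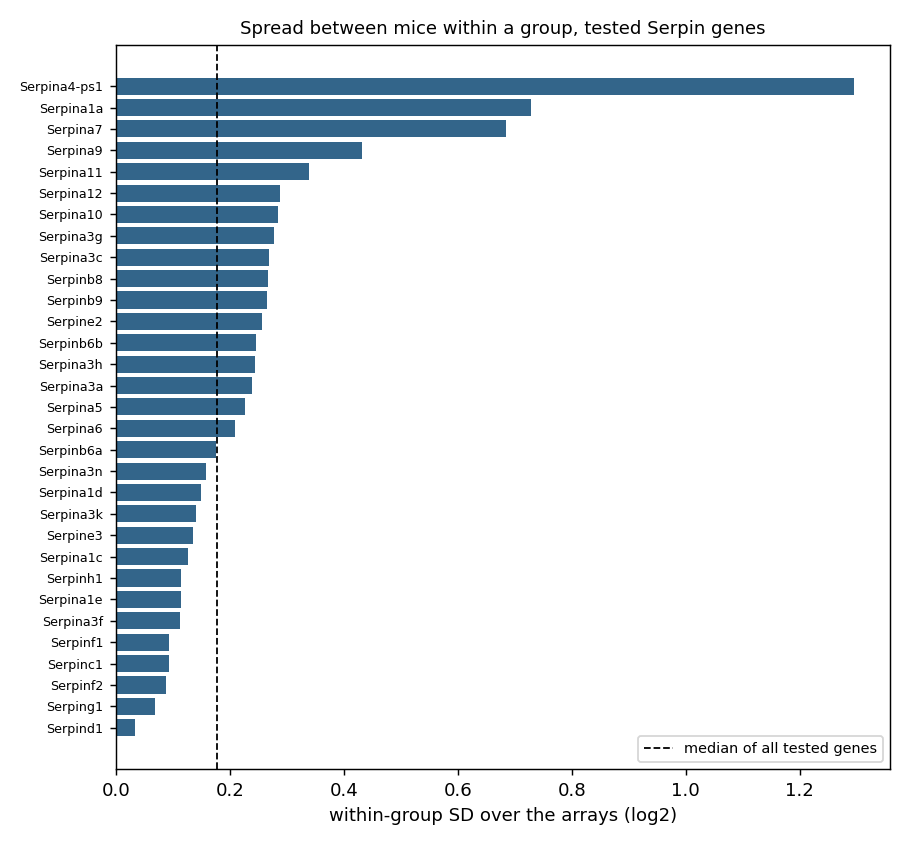
Within-group SD of log2 values (x axis, pooled over the miR-143DOX and control groups of 3 arrays) of the 31 tested Serpin genes, with a dashed line at the median of all tested genes, 0.18. Serpina4-ps1 stands at 1.29, followed by Serpina1a at 0.73 and Serpina7 at 0.69, and Serpind1 is lowest at 0.03.

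The 7 measured serpins listed for coagulation, fibrinolysis and complement were Serpina5, Serpina10, Serpinc1, Serpind1, Serpine2, Serpinf2 and Serping1. All 7 lay below 0 in miR-143DOX hepatocytes, against 47.6% of all tested genes, and 0 of them reached an unadjusted p under 0.05. Their median was -0.15, with a range of -0.31 to -0.02, and 1 other gene written for that list was not analysed here. Antithrombin, Serpinc1, the main inhibitor of thrombin and factor Xa, measured 11.64, 11.66 and 11.53 in miR-143DOX mice and 11.63, 11.83 and 11.82 in control mice. The groups overlapped at a difference of -0.15 (95% interval -0.44 to 0.14), and its 10 probe sets gave -1.24 for the dimmest and 0.04 for the brightest, with 6 below and 4 above 0. Heparin cofactor II, Serpind1, a second thrombin inhibitor, measured 11.51, 11.55 and 11.57 in miR-143DOX mice and 11.58, 11.60 and 11.53 in control mice, a difference of -0.02 (-0.29 to 0.25).

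Serpinf2 encodes alpha-2-antiplasmin, the plasma inhibitor of plasmin. It measured 12.10, 12.29 and 12.31 in miR-143DOX mice and 12.39, 12.37 and 12.44 in control mice, and the groups did not overlap. The difference was -0.17 (95% interval -0.45 to 0.12), with all 10 probe sets below 0 at -0.28 to -0.10. Serpinf1 encodes pigment epithelium-derived factor, an anti-angiogenic serpin without known protease inhibition, and it measured 10.38, 10.49 and 10.55 in miR-143DOX mice and 10.61, 10.61 and 10.79 in control mice. It too was apart, at -0.19 (95% interval -0.48 to 0.09), with 9 of 9 probe sets below 0.

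Serping1 encodes C1 inhibitor, which restrains complement C1 and plasma kallikrein. It measured 11.67, 11.79 and 11.86 in miR-143DOX mice and 11.89, 11.90 and 11.89 in control mice. The control mice were almost level and all miR-143DOX mice lay below them, at a difference of -0.12 (95% interval -0.40 to 0.16), with 8 of 8 probe sets below 0. The intervals of these 3 genes all included 0, although their arrays were apart. Sinusoidal endothelium markers lay below 0 for 12 of 14 genes with a median of -0.11, averaging 7.19 to 7.69 in miR-143DOX arrays and 7.49 to 7.65 in control arrays. Their part was not tested.

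Serpina10, the protein Z-dependent inhibitor of factor Xa, measured 9.04, 9.26 and 9.61 in miR-143DOX mice and 9.76, 9.28 and 9.79 in control mice. The groups overlapped at -0.31 (95% interval -0.71 to 0.09), with 5 of 6 probe sets below 0. Its difference depended on how probe sets were combined, at -0.53 with their median, and on single arrays, at -0.18 with miR-143DOX replicate 1 left out, -0.46 with miR-143DOX replicate 3 left out and -0.47 with control replicate 2 left out. The median, and leaving out control replicate 2 or miR-143DOX replicate 3, brought it under an unadjusted p of 0.05. Serpina5, the protein C inhibitor, was dim in these hepatocytes at 5.01 ± 0.27 in miR-143DOX and 5.18 ± 0.17 in control (SD, n = 3 each). Serpine2, protease nexin-1, measured 6.52 ± 0.31 in miR-143DOX and 6.63 ± 0.19 in control, and its difference of -0.11 turned to 0.37 with its brightest probe set.

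**Figure D4:**
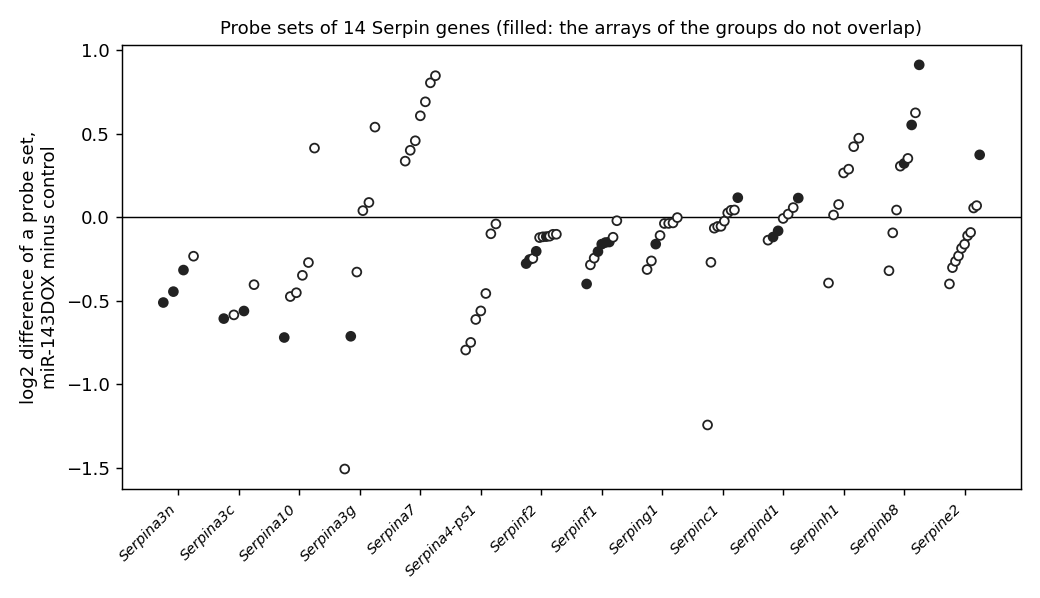
Log2 difference of each probe set (y axis, miR-143DOX minus control, 3 arrays each) of 14 Serpin genes; filled points are probe sets whose arrays do not overlap between the groups. All probe sets of Serpina3n, Serpina3c, Serpina4-ps1, Serpinf2, Serpinf1 and Serping1 lie below 0 and all 7 of Serpina7 above 0, while those of Serpina3g run from -1.51 to 0.54.

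The arrays of the groups overlapped for the other tested members. Serpina12, vaspin, measured 7.28, 7.45 and 7.85 in miR-143DOX mice and 7.25, 7.44 and 7.81 in control mice, nearly the same values in both groups (0.02, 95% interval -0.38 to 0.43). Serpinh1, the collagen chaperone HSP47, measured 6.22, 6.32 and 6.06 in miR-143DOX mice and 6.09, 6.10 and 5.93 in control mice, a difference of 0.16 (-0.13 to 0.46) with overlap. Stellate cell and fibroblast markers, from cells that make collagen, averaged 6.48 to 6.67 in miR-143DOX arrays and 6.48 to 6.54 in control arrays. The remaining tested clade A genes, Serpina11 and Serpina9, differed by -0.16 and -0.11 (standard errors 0.20 and 0.24), and Serpine3 by -0.11 (0.14).

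Clade B serpins act mostly inside cells, and only 4 of the 23 measured were bright enough to test. Serpinb8 measured 6.39, 5.67 and 6.08 in miR-143DOX mice and 5.66, 5.85 and 5.72 in control mice, a difference of 0.30 (95% interval -0.09 to 0.69) with overlap, and with its brightest probe set it stood at -0.32. Serpinb6a measured 6.59, 6.29 and 6.17 in miR-143DOX mice and 6.61, 6.36 and 6.47 in control mice (-0.13, 95% interval -0.46 to 0.20). Serpinb9, the inhibitor of the cytotoxic protease granzyme B, measured 5.93, 5.34 and 5.69 in miR-143DOX mice and 5.55, 5.84 and 5.38 in control mice (0.06, -0.32 to 0.45), and -0.56 with its brightest probe set. Serpinb6b differed by -0.25 (standard error 0.17).

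The 23 genes left untested comprised 19 of clade B, 2 of clade A and both of clade I. Their mean levels ran from 3.03, for Serpinb3a, to 5.03, and their differences from -0.22 to 0.29, with 10 below and 13 above 0. No detection calls came with the values, so expression of these genes is not separated from background. Among them Serpini1, neuroserpin of the nervous system, measured 4.55, 4.50 and 4.57 in miR-143DOX mice and 4.64, 4.77 and 4.81 in control mice. It was one of 2 such genes whose arrays were apart, both lower. The other was Serpinb9d, named after its values were seen. Of the 10 probe sets of Serpini1, 7 lay below and 3 above 0, and 0 had arrays apart. Of the 5 of Serpinb9d, 2 lay below and 3 above 0, and the 1 with arrays apart was higher. The share of all untested genes with arrays apart was not counted, so no background stands beside these 2 genes. Serpinb1a, an inhibitor of neutrophil elastase, measured 5.49, 4.63 and 4.45 in miR-143DOX mice and 4.37, 5.01 and 4.34 in control mice, with replicate 1 highest among the miR-143DOX mice. Neutrophil markers averaged 4.74 to 4.93 in miR-143DOX arrays and 4.69 to 4.87 in control arrays. The 20 probe sets shared among Serpinb9 copies, some of them with identical values, were dim as well, with mean levels of 2.42 to 6.09.

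**Figure D5:**
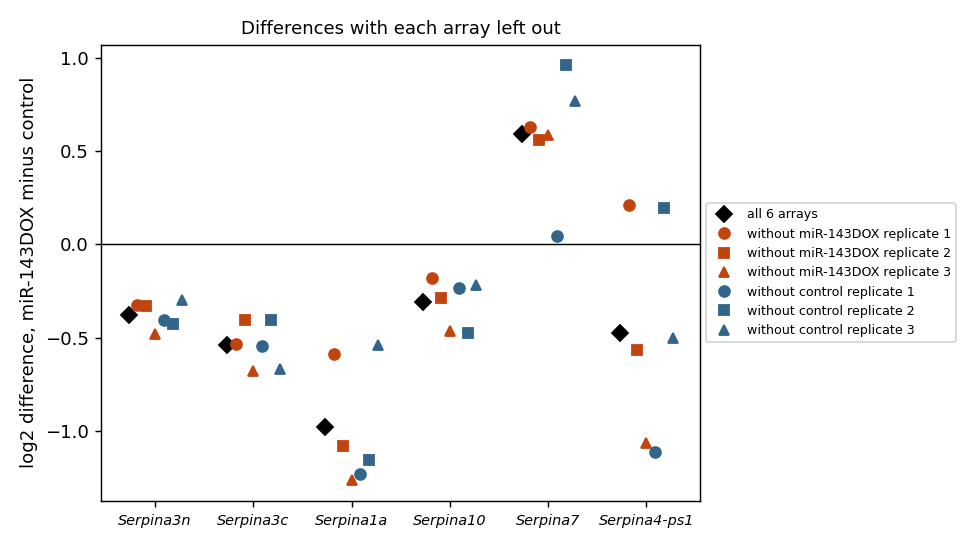
Log2 difference (y axis, miR-143DOX minus control) of 6 Serpin genes with all 6 arrays (black) and with each array left out in turn (colour for the group and shape for the replicate of the array left out). Serpina3n, Serpina3c, Serpina1a and Serpina10 stay below 0 throughout, Serpina7 goes to 0.04 without control replicate 1, and Serpina4-ps1 takes both signs.

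Proteases that serpins inhibit lay below 0 for 14 of 21 tested genes (66.7%, against 47.6% of all tested genes), with a median of -0.11, and 2 were lower at an unadjusted p under 0.05 (background 1.68%). Coagulation factor VII (F7), the protease that starts clotting with tissue factor, measured 8.86, 9.14 and 9.24 in miR-143DOX mice and 9.52, 9.49 and 9.45 in control mice (-0.40, 95% interval -0.71 to -0.10). Complement C1s (C1s), a target of C1 inhibitor, measured 9.66, 9.95 and 10.05 in miR-143DOX mice and 10.18, 10.06 and 10.43 in control mice (-0.34, -0.68 to -0.00). Neither gene overlapped between the groups, and factor XI (F11), at -0.35 (standard error 0.19), did. None of them passed 5% FDR (limma, adjusted p = 0.9997 each), and the same adjusted p held for every partner gene named here.

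Cofactors and clearance receptors of serpins lay below 0 for 10 of 16 genes (62.5%, against 47.6% of all tested genes), with a median of -0.08. Asgr2, a subunit of the hepatocyte receptor that clears desialylated plasma glycoproteins, measured 8.85, 9.04 and 9.14 in miR-143DOX mice and 9.47, 9.30 and 9.26 in control mice, the one member at an unadjusted p under 0.05 (-0.33, 95% interval -0.63 to -0.03, background 1.68% lower). The syndecan gene Sdc2 and the urokinase receptor gene Plaur differed by -0.24 and -0.21 (standard errors 0.15 and 0.13). Among factors that act on serpin genes, 10 of 18 lay below 0 (55.6%) with a median of -0.05 and 0 reached that p. The nearest were Stat5a at 0.29, Bcl6 at -0.54 and Cebpd at -0.29, with standard errors of 0.16, 0.35 and 0.19.

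Genes for folding and export of secreted serpins in the endoplasmic reticulum lay below 0 for 21 of 23 genes (91.3%, against 47.6% of all tested genes), with a median of -0.16. The chaperone gene Hspa5 measured 11.17, 10.76 and 10.99 in miR-143DOX mice and 11.13, 11.30 and 11.66 in control mice, with overlap, and was the 1 member at an unadjusted p under 0.05 (-0.39, 95% interval -0.76 to -0.02, background 1.68% lower). Pdia4 and the ubiquitin ligase gene Syvn1 differed by -0.32 and -0.41 (standard errors 0.16 and 0.21), and both overlapped. Control replicate 3 was highest for all 3 genes. It was also the highest array for several Serpin genes, among them Serpina3n, Serpina1a and Serpinf2, whose differences lay below 0. Serpina1c and Serpina3k, which differed by -0.004 and 0.07, were highest in that array too. The part of the folding and export genes in any Serpin difference was not tested.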

How the data were processed

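The deposited log2 values of 234873 probe sets were used, as the authors made them with Partek, per the submitters' processing notes (the sources used here give no background correction or scaling). The scale was read from the values, 1.60 to 15.16. Platform annotation gave 1 gene symbol for 212097 probe sets, several for 4475 and none for 18301. Because percentiles of the arrays differed by up to 0.135, over the set limit of 0.1, values were quantile normalized. Gene values are means over probe sets that name 1 gene (median 8). Genes in the lowest 25% by mean were left out. The test was limma's two-sided moderated test (version 3.58.1, R 4.3.3) of group without covariates, and p-values were adjusted by Benjamini-Hochberg over the 15312 genes tested; the steps were tested on simulated data. Only 3 arrays per group limit the precision.

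The members and the lists were chosen with earlier results of these data known. Genes named were those past 5% FDR, the 8 tested Serpin genes with the smallest p, the brightest and dimmest gene of each clade of 3 or more, a set fixed by role, and up to 3 genes of each partner list. Further genes are named to complete a count, and Serpina4-ps1, Serpinb9d, Hspa1a, Gadd45g, Ms4a1, Cd79a and Fcrla after their values were seen. Alternatives were other scalings, filters and summaries of probe sets, leaving out each array, a clock covariate, weighted arrays, blocking by replicate number and a robust prior that follows intensity. Expression of 5 cell type lists and the stress list is given where it bears on a result.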

Additional observations from a re-analysis of the deposited data

How the results depend on the processing

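Over 17 alternatives, 0 Serpin genes and 0 of all genes passed 5% FDR in any, and the median difference of tested Serpin genes stayed below 0, between -0.13 with the lowest 50% of genes left out and -0.04 with the brightest probe set. Members lower at an unadjusted p under 0.05 numbered 3 in the fit reported, 5 with array weights and 1 to 5 with single arrays left out. Leaving out the third control mouse or the second miR-143DOX mouse gave 1, and leaving out the third miR-143DOX mouse gave 5. The brightest probe set left Serpina3n above that p, and the robust prior left Serpina1a above it. The median over probe sets left Serpina3c above it and brought Serpina10 under it. Members higher numbered 0, and 1 with the brightest probe set, 1 with probe sets above the lowest 25%, and 0 to 1 with single arrays left out. The replicate block gave 4 lower, Serpina3g in addition, and 0 higher. The numbers were not taken to pair the mice, since same-numbered arrays deviated together at correlations of 0.11, 0.05 and 0.30, not all over 0.1; miR-143DOX arrays 2 and 3 correlated best with the control of their own number, and array 1 with control replicate 2. Of 24 named genes, 12 kept their sign in every alternative, and 29 of 401 gene and alternative pairs turned sign, none of them with p under 0.05 in either fit. Another 7 pairs had no value, as the gene fell under the limit on dim genes. Serpina3n, Serpina3c and Serpina1a had p under 0.05 in 13, 14 and 14 of 17 alternatives. Over all genes, 520 were higher and 501 lower at that p with array weights, against 212 and 257 in the fit reported. The share of such calls that were higher was 45.2%, and ran from 36.1% with the lowest 50% of genes left out to 54.3% with the brightest probe set. The causes were not tested. Dim genes lack a detection call, so 23 Serpin genes were not tested.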
